A study of Rattus norvegicus with 30 samples.

Results

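The change in gene expression between 3 h and 12 h of adipogenic induction was examined in bone marrow mesenchymal stem cells (BMSCs) of the Sprague Dawley rat. The comparison was chosen by group label and took 6 of the 30 RNA-sequencing samples of the series, namely the 3 samples labelled AD_12h against the 3 labelled AD_3h. The series holds 10 groups of 3 samples, which are undifferentiated cells (CON) and cells under adipogenic (AD), osteogenic (OS) or chondrogenic (CH) induction at 3 h, 12 h and day 3. Per the study's methods, the cells came from 3 female rats aged 3 weeks and were used at passage 2, and each sequenced sample pooled 3 cultures. AD_3h and AD_12h therefore shared strain, cell source and a commercial adipogenic medium, whose composition is not given in the sources used here, and differed in the hours spent in it. No genetic change was made in any group. The p-values below measure the spread between these samples, which were pools of cultures. The sources used here do not say which of the 3 animals each pool came from. No medium control of the same age was compared here, so that time in culture and time in adipogenic medium cannot be told apart within these 6 samples.

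Adipogenesis is the conversion of a stromal precursor into a lipid-storing adipocyte. Inducing cocktails commonly carry a glucocorticoid, an agent that raises cyclic AMP and insulin, and an early wave of C/EBP and Krüppel-like factors is known to precede the lipid regulators PPARγ and C/EBPα. Lipid droplets and late adipocyte proteins appear after days, so the hours compared here belong to the early phase, in which the actin cytoskeleton, the surrounding matrix and sterol synthesis are known to be remodelled.

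The deposited values were CPM, the read count of a gene scaled to a fixed library total. They carry no correction for gene length, so that levels were compared between samples and never between genes. All values corresponded to whole reads, and the recovered totals ran from 5405033 to 9046719 reads in the 6 samples and from 3899609 to 9046719 over all 30. The listed genes held between 54.2% and 64.6% of the reads of the 6 samples. Actb and Vim, which such cells use abundantly, were listed at 0 to 1.77 CPM in these 6 samples, so a low or zero listed value was not read as absence of a transcript. A count of 3 reads, used as the floor, corresponded to 0.332 to 0.555 CPM, and floors and bounds cover counting error only. In bulk RNA, fewer cells of a type and less RNA per cell cannot be told apart. Replicate values are given below in the order 1, 2 and 3.

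AD_12h replicate 1 lay apart from the other samples of its group. It deviated by more than 1 log2 unit from the mean of the other 2 samples in 299 of the 4363 genes tested, 156 above and 143 below, whereas the remaining 5 samples deviated in 39 to 130 genes. Over the other 29 samples of the series the number ran from 33 to 425. Its listed genes took 64.6% of the reads, against 54.2% and 54.3% in replicates 2 and 3. Of the 299 genes, 278 (93.0%) were shifted toward the mean of OS_12h, 268 (89.6%) toward CH_3h, 257 (86.0%) toward OS_3h, 252 (84.3%) toward CH_12h and 251 (83.9%) toward AD_3h. The shares for the other 4 groups ran from 57.5% for AD_72h to 76.9% for CON. The shift and the direction to each group were both measured from the mean of replicates 2 and 3. This shared reference by itself raises the shares, and no share expected without a shift was computed. Over all tested genes the correlation between shift and direction ran from -0.02 for AD_72h to 0.61 for OS_12h, with the same limit. Hspb7, a small heat shock protein, stood at 4970, 818 and 814 CPM in the 3 AD_12h samples, and Lpl, the lipase that releases fatty acids from lipoproteins, at 253, 1090 and 1030 CPM. Kprp stood at 197, 9.39 and 7.22 CPM. These genes were chosen after their values were seen. The label was kept, and the counts of calls in each gene list are also given without this sample. Counts of genes whose groups did not overlap are given with all samples.

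**Figure D1:**
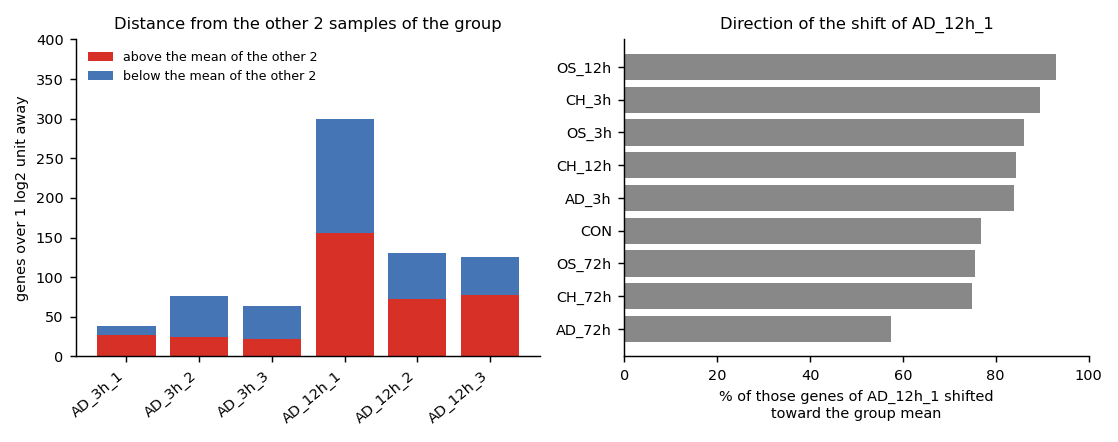
Left, number of tested genes (y axis) in which each AD sample lay over 1 log2 unit above (red) or below (blue) the mean of the other 2 samples of its group; right, share in % (x axis) of the 299 such genes of AD_12h_1 that were shifted toward the mean of each other group. AD_12h_1 held 299 such genes against 39 to 130 in the other 5 samples, and the share shifted toward another group ran from 57.5% for AD_72h to 89.6% for CH_3h and 93.0% for OS_12h. Shift and direction were both measured from the mean of the other 2 samples of AD_12h, which by itself raises the shares.

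From 3 h to 12 h, 565 of 4363 tested genes (12.9%) were called, with 224 higher (5.13% of the tested genes) and 341 lower (7.82%). A call required a change of at least 1 in size on the log2(CPM + 1) scale and a Benjamini-Hochberg adjusted p under 0.05 in limma. Without AD_12h replicate 1, 668 of 4350 genes (15.4%) were called, 279 higher (6.41%) and 389 lower (8.94%). The calls shared by both fits numbered 517, and none of the 565 changed sign. All 3 samples at 12 h lay beyond all 3 at 3 h in 553 of the 565 genes, against 41.1% of all tested genes. The calls were made on these same samples, so this separation largely follows from the call and is no separate evidence. The median log2 change over all tested genes was -0.02, and changes are read against that value. The counts of each gene list below are to be read against the 5.13% of all tested genes that rose and the 7.82% that fell, and a share near these is no result about a list. Many chosen members of the lists had no listed value. Such genes were not tested and cannot be counted as unchanged.

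The 12 largest rises ran from 2.66 to 6.10 on the log2 scale. Igfbp5, a binding protein that modulates insulin-like growth factors, stood at 3.65, 1.89 and 4.16 CPM at 3 h and at 767, 166 and 174 CPM at 12 h, a log2 change of 6.10 ± 0.74 (SE, adjusted p = 1.2e-07). The 12 h samples lay far above the 3 h samples, with replicate 1 above the others, and the change was 5.38 without it. Aox1, an aldehyde oxidase, went from 14.4, 20.8 and 21.9 CPM to 251, 443 and 427 CPM, a log2 change of 4.20 ± 0.20 (adjusted p = 1.29e-16). Undifferentiated cells held 100, 98.9 and 94.6 CPM of Aox1. Ptn, which encodes the heparin-binding growth factor pleiotrophin, rose from 14.8, 16.0 and 16.1 CPM to 344, 163 and 175 CPM, by 3.69 ± 0.21 (adjusted p = 1.48e-14). Spon1, the matrix protein F-spondin, was the most even of these genes, at 30.8, 28.8 and 30.8 CPM at 3 h and 202, 209 and 205 CPM at 12 h, with a change of 2.73 ± 0.13 (adjusted p = 1.11e-16).

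Cxcl6 and C1s also stood among the 12 largest rises. The chemokine gene Cxcl6 rose from 5.86, 6.77 and 5.95 CPM to 49.3, 94.7 and 101 CPM, a log2 change of 3.46 ± 0.67 (adjusted p = 0.000167). C1s, a protease of the classical complement pathway, rose by 3.48 ± 0.28 (adjusted p = 3.93e-11), from 2.21, 3.46 and 4.02 CPM to 29.5, 55.8 and 56.2 CPM. It was summed from several rows of one name and is uncertain to that extent, as is Mtus1, with a change of 2.89. Rab38 and Rab9a, small GTPases of vesicle transport, rose by 2.74 ± 0.16 and 2.66 ± 0.15, and Rab9a went from 78.7, 82.5 and 83.1 CPM to 422, 587 and 565 CPM. The remaining rises of this set were Rnf144a, a ubiquitin ligase, with 2.96 (3.65 without replicate 1), NEWGENE_620180 with 2.79 (3.55 without replicate 1) and Fibin with 2.78. In all 12 genes the 3 h and 12 h samples did not overlap, as the rule for naming them required.

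**Figure D2:**
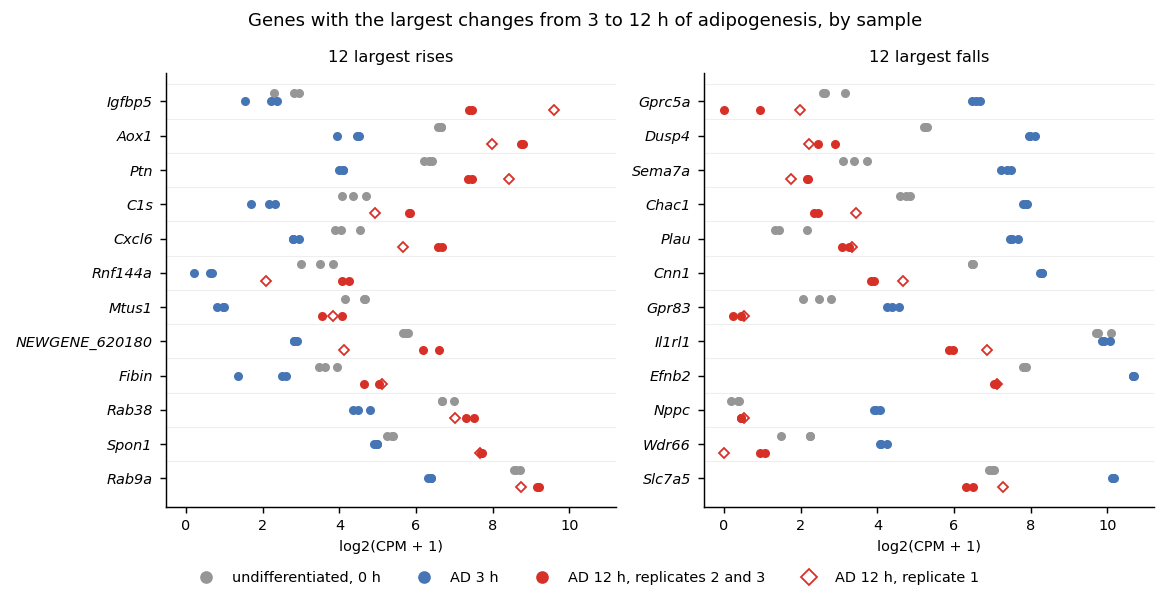
Expression on the log2(CPM + 1) scale (x axis) of the 12 genes with the largest rises (left) and falls (right); each point is a sample, grey for undifferentiated cells (CON), blue for AD_3h, red for AD_12h, with AD_12h replicate 1 as an open diamond. The blue and red points of each gene do not overlap, and Igfbp5 rose most (6.10) while Gprc5a fell most (-5.60).

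The 12 largest falls ran from -5.60 to -3.46 on the log2 scale. Gprc5a, an orphan receptor, stood at 94.1, 86.7 and 102 CPM at 3 h and at 2.93, 0 and 0.925 CPM at 12 h, a log2 change of -5.60 ± 0.31 (adjusted p = 7.46e-15). Sema7a, a membrane-anchored semaphorin, fell from 166, 149 and 177 CPM to 2.34, 3.50 and 3.52 CPM, a change of -5.34 ± 0.17 (adjusted p = 8.16e-21). Efnb2, the ligand ephrin-B2, fell from 1610, 1620 and 1650 CPM to 137, 131 and 135 CPM, by a tightly measured -3.59 ± 0.10 (adjusted p = 5.13e-22). Undifferentiated cells held 223, 233 and 228 CPM of Efnb2. Plau, the urokinase plasminogen activator, stood at 182, 176 and 203 CPM and then at 9.07, 8.65 and 7.40 CPM (-4.33 ± 0.33, adjusted p = 1.03e-11), against 1.72, 1.53 and 3.49 CPM in undifferentiated cells. The rule kept genes whose groups did not overlap, and all samples of these genes at 12 h lay below those at 3 h.

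Il1rl1, which encodes the receptor of interleukin 33, was lower by -3.72 ± 0.36 on the log2 scale (adjusted p = 1.82e-09), from 930, 956 and 1080 CPM to 115, 57.6 and 61.6 CPM, and was summed from several rows. Gpr83, a receptor coupled to G proteins, held 19.9, 18.1 and 22.6 CPM at 3 h and no more than 3 reads in any library at 12 h, at least 39.2-fold lower. Nppc, the precursor of C-type natriuretic peptide, held 15.7, 14.5 and 14.1 CPM at 3 h and was at least 28.7-fold lower at 12 h, again with no more than 3 reads in a library. Nppc was listed at 0.143, 0.279 and 0.303 CPM in undifferentiated cells. Wdr66 changed by -3.47 ± 0.32 (adjusted p = 7.61e-10). Dusp4, Chac1, Slc7a5 and Cnn1 complete the 12 and are described with their pathways.

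A large part of the amino acid response genes fell. ATF4 is the transcription factor that is translated when amino acids are scarce or the endoplasmic reticulum is stressed, and it drives genes of amino acid import and synthesis. Of 21 tested genes of this response, 10 fell and none rose, and 11 fell without AD_12h replicate 1. The median log2 change was -1.0, against -0.02 over all tested genes, and in 15 of the 21 all samples at 12 h lay below all samples at 3 h, against 21.5% of all tested genes (19.6% lay above). Atf4 itself stood at 1650, 1600 and 1670 CPM at 3 h and at 546, 440 and 432 CPM at 12 h, a change of -1.80 ± 0.13 (adjusted p = 4.77e-12). Undifferentiated cells held 840, 803 and 1060 CPM.

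Chac1, an enzyme that degrades glutathione, fell from 237, 220 and 232 CPM to 9.95, 4.05 and 4.44 CPM, a log2 change of -5.10 ± 0.18 (adjusted p = 1.06e-19). Slc7a5, the light chain of a transporter of large neutral amino acids, fell from 1120, 1130 and 1150 CPM to 155, 77.7 and 88.3 CPM (-3.46 ± 0.17, adjusted p = 2.44e-16). Mthfd2, a mitochondrial enzyme of one-carbon metabolism, went from 355, 332 and 376 CPM to 66.3, 104 and 81.4 CPM (-2.09 ± 0.13, adjusted p = 5.19e-14). Sesn2, a sensor that restrains mTORC1, stood at 938, 996 and 927 CPM and then at 228, 224 and 222 CPM (-2.08 ± 0.09, adjusted p = 3.88e-17). No sample of these 4 genes at 12 h reached the level of a sample at 3 h. Asns, asparagine synthetase, held 4.97, 6.61 and 3.57 CPM at 3 h and at most 3 reads in each library at 12 h, at least 9.8-fold lower. Slc1a4, Psat1, Psph and Eif4ebp1, named after their values were seen, changed by -1.52 to -1.88. The glutamine transporter gene Slc38a2 was not called and stood at 14.6, 17.0 and 17.8 CPM at 3 h and at 12.6, 14.7 and 15.7 CPM at 12 h.

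**Figure D3:**
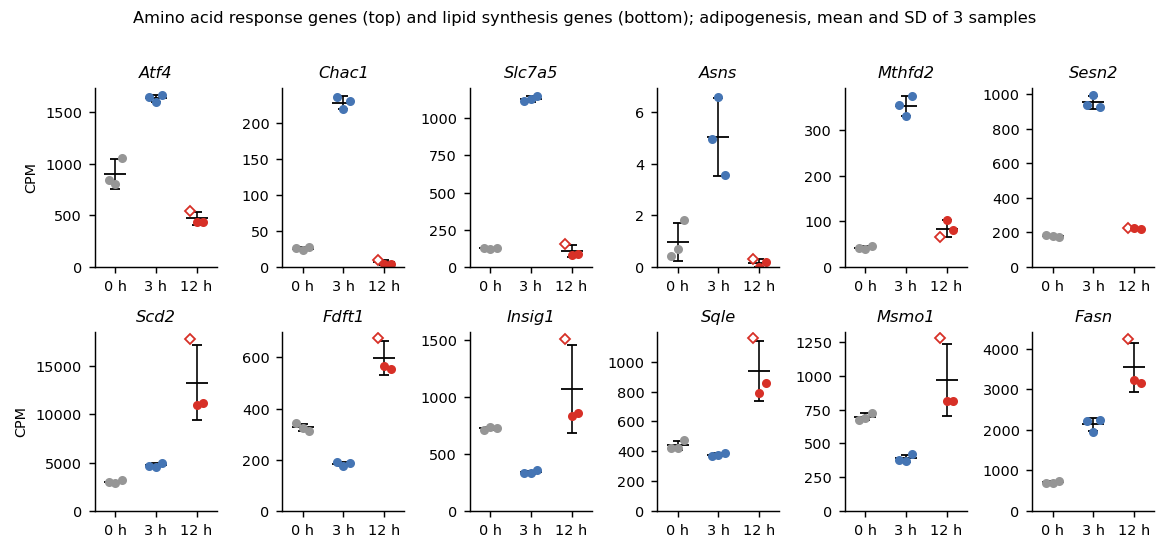
CPM (y axis of each panel, starting at 0) of 6 amino acid response genes (top) and 6 lipid synthesis genes (bottom) in undifferentiated cells (0 h in the plot) and at 3 h and 12 h of adipogenesis; points are samples, the open diamond is AD_12h replicate 1, and lines give the mean and SD of 3 samples. Atf4 went from 1600 to 1670 CPM at 3 h to 432 to 546 CPM at 12 h, while Scd2 went from 4550 to 4940 CPM to 11000 to 17800 CPM.

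Genes that charge tRNAs and build ribosomes act downstream of the amino acid supply. Of 11 tested aminoacyl-tRNA synthetases, 3 fell (2 without AD_12h replicate 1) and none rose, with a median log2 change of -0.30. Yars, the tyrosyl synthetase, fell from 593, 581 and 611 CPM to 325, 222 and 199 CPM (-1.29 ± 0.13, adjusted p = 1.99e-09). Eprs changed by -1.39 from summed rows and lost its call when those rows were tested apart. Wars changed by -1.11 and lost its call without AD_12h replicate 1 (-0.83) and without AD_3h replicate 1. Of 16 tested ribosome biogenesis genes, 4 fell (5 without AD_12h replicate 1, 2 without replicate 2) and none rose, with a median of -0.56. Rrp1b, a nucleolar protein, fell from 266, 242 and 272 CPM to 132, 101 and 117 CPM (-1.16 ± 0.10, adjusted p = 5.01e-11). Nip7, an assembly factor, changed by -1.14, and Tsr1 and Rrp12 by -1.12 and -1.07, the last pair losing their calls without AD_12h replicate 2. Bop1 narrowly missed the threshold of size, at 281, 255 and 273 CPM and then 187, 115 and 114 CPM, and was called without AD_12h replicate 1 (-1.23).

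Chaperones of the endoplasmic reticulum fold secreted proteins, and the unfolded protein response induces them through the ER stress response element (ERSE). Among 18 tested genes of this list 1 rose and 2 fell (1 and 3 without AD_12h replicate 1), with a median of -0.24, and these counts lay close to the 5.13% and 7.82% of all tested genes. Hspa5, the chaperone BiP, fell from 7330, 7840 and 8030 CPM to 3180, 2460 and 2560 CPM (-1.51 ± 0.18, adjusted p = 6.1e-08), against 4010, 3900 and 3700 CPM in undifferentiated cells. Ppp1r15a, the phosphatase subunit that relieves translational arrest, changed by -1.87 ± 0.28 (adjusted p = 5.44e-06) on summed rows. Creb3l1, a membrane-bound transcription factor related to ATF6, rose from 425, 380 and 395 CPM to 983, 1010 and 962 CPM (1.30 ± 0.18, adjusted p = 7.82e-07). Calr, calreticulin, held 2.21, 3.93 and 2.23 CPM at 3 h and 1.46, 0.552 and 0.740 CPM at 12 h and was not called. It was called when AD_12h replicate 1 was left out (-1.18), when AD_3h replicate 1 or 3 was left out, and in the edgeR fit to all samples (-1.54, adjusted p = 0.047). Among 13 heat shock and oxidative stress genes, 1 rose (Mt2A) and 3 fell, with and without AD_12h replicate 1, and the median was -0.05. Osgin1 changed by -2.13, the small heat shock protein gene Hspb8 by -1.28 and its partner Bag3 by -1.16.

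The promoters of Hspa5 and Calr are shown because they carry the ERSE, a CCAAT box and a CCACG box held apart at a set spacing, within the 250 bases before the RefSeq start of transcription (build GRCr8). Capitals mark the match. The Hspa5 window is chr3:38452766-38453015 on the plus strand, with the match beginning 43 bases before the start, and the Calr window is chr19:40213117-40213366 on the plus strand, with the match on the reverse strand beginning 232 bases before the start. Among 14 list genes with a promoter in the RefSeq set 5 held the element, against 0.0657% of the 33469 promoter windows searched on both strands and 0.209% of the 3351 tested genes with a promoter. The other 3 carriers, Dnajc3, Creld2 and Ero1b, were not called, with log2 changes of 0.03, 0.02 and 0.29. A match is a description of letters and not a site of binding.
Hspa5: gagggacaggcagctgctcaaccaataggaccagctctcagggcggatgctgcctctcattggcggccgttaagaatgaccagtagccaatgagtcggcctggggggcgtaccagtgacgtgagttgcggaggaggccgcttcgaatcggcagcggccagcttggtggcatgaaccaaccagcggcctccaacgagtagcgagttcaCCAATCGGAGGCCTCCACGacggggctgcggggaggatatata
Calr: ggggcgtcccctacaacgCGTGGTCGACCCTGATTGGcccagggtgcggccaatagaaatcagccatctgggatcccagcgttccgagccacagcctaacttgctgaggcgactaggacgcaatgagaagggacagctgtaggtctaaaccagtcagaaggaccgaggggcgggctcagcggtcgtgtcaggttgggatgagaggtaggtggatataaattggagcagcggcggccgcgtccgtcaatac

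Part of the actin cytoskeleton genes fell. Serum response factor (SRF) and the YAP cofactors drive contractile and cytoskeletal genes when actin is assembled. Of 36 tested genes, 9 fell and none rose, whereas 10 fell and 1 rose without AD_12h replicate 1, and the median log2 change was -0.44. In osteogenesis 12 of these genes fell and 1 rose, with a median of -0.52, where 3.12% of all tested genes fell and 4.7% rose. Cnn1, a calponin of contractile cells, fell from 315, 311 and 302 CPM to 24.4, 13.3 and 13.9 CPM (-4.14 ± 0.17, adjusted p = 4.14e-18). Tagln, the actin-binding protein transgelin, went from 43.8, 34.6 and 52.0 CPM to 6.87, 9.76 and 10.2 CPM (-2.16 ± 0.22, adjusted p = 3.97e-09). Both genes were separated between times in every sample. Actn4, an actin crosslinker counted on summed rows, changed by -1.69 ± 0.16 (adjusted p = 1.09e-09), and Actg2, a smooth muscle actin, by -1.53 from at most 3.72 CPM. Ctgf, a target of YAP, held 3.54, 5.66 and 5.35 CPM at 3 h and 6.87, 0.921 and 1.48 CPM at 12 h, where replicate 1 lay above every 3 h sample and the other 2 below them, and it was called without that replicate (-1.40) and with a pseudocount of 0.1 (-1.12).

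Cnn2, a second calponin gene, changed by -1.09 ± 0.15 (adjusted p = 1.15e-06), from 756, 670 and 812 CPM to 443, 321 and 297 CPM. It was named after its values were seen and lost its call without AD_12h replicate 3 and when samples were scaled to the same sum over listed genes. Its promoter is shown because it holds a CArG box, the element bound by SRF, in capitals, beginning 71 bases before the start. The window is chr7:10370313-10370562 on the minus strand of GRCr8, from RefSeq. A CArG box was found in 4 of 31 list genes with a promoter and in 1.64% of all promoter windows (1.19% of tested genes). The other 3 carriers, Fhl1, Lima1 and Rnd3, were not called.
Cnn2: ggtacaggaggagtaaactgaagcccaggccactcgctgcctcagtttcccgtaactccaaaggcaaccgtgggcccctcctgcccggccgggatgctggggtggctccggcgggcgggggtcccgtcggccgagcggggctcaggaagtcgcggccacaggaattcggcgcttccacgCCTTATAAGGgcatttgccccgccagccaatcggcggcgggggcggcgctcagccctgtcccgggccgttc

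Of 7 tested genes of the circadian clock, 2 fell and none rose, with and without AD_12h replicate 1, and the median log2 change was -0.60 with it and -0.38 without it, where 7.82% of all tested genes fell. They were Bhlhe40 and Bhlhe41, transcriptional repressors that bind the E-box and oppose the clock activators. Bhlhe40 fell from 139, 132 and 153 CPM to 22.8, 15.1 and 14.4 CPM (-2.97 ± 0.18, adjusted p = 5.51e-14), against 259, 244 and 261 CPM in undifferentiated cells. Bhlhe41 went from 5.31, 6.61 and 6.25 CPM to 1.02, 0 and 1.48 CPM (-2.04 ± 0.28, adjusted p = 9.78e-07). The 3 h and 12 h samples did not overlap in either gene. Nr1d1, the nuclear receptor REV-ERBα, was not called at 1.66, 2.67 and 3.12 CPM and then 0.439, 0.368 and 1.85 CPM, and neither was Arntl, the clock activator, at 0.663, 0.157 and 0.892 CPM and then 0.731, 1.29 and 0.185 CPM.

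Both repressor promoters are shown because they hold the E-box CACGTG, in capitals, the sequence through which clock activators act on target genes. The Bhlhe40 window is chr4:143174200-143174449 on the plus strand, with the match 220 bases before the start, and the Bhlhe41 window is chr4:180569356-180569605 on the minus strand, with the match 48 bases before it (RefSeq, GRCr8). The E-box was found in 3 of 6 clock genes with a promoter and in 6.42% of all promoter windows (8.92% of tested genes). The third carrier, Nr1d1, was not called.
Bhlhe40: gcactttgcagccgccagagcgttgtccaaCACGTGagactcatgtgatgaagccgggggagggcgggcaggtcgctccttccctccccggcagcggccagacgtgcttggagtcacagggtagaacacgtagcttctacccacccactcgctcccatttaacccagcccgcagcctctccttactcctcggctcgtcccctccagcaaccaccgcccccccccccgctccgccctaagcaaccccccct
Bhlhe41: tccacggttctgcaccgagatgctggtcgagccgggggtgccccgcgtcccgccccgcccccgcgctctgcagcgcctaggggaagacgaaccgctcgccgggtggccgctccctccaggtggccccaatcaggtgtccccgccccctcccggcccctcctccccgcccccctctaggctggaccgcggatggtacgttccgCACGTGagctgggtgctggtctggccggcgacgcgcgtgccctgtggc

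Feedback regulators of the MAPK cascade and immediate-early genes mark recent growth factor signalling. Only 10 of 27 chosen MAPK feedback genes were listed. Of 6 tested MAPK feedback genes 3 fell and none rose, with and without AD_12h replicate 1, and the median was -0.94. All 3 encode phosphatases that inactivate MAP kinases. Dusp4 fell from 251, 248 and 273 CPM to 3.66, 4.42 and 6.48 CPM (-5.49 ± 0.21, adjusted p = 1.81e-18), and undifferentiated cells held 36.4, 37.9 and 36.7 CPM. Dusp10 changed by -2.0 ± 0.15 (adjusted p = 1.38e-11) and Dusp6 by -1.56 ± 0.24 (adjusted p = 5.24e-06). Spry2, an inhibitor of receptor tyrosine kinase signalling, was not called at 11.1, 14.8 and 11 CPM and then 15.9, 9.21 and 10.7 CPM. Among 10 immediate-early and cyclic AMP response genes, 1 rose and 3 fell, with and without AD_12h replicate 1, while the median was 0.14 with it and -0.08 without it. Of the 37 chosen genes of this list 15 were listed, and Fos and Egr1 were not. Jun, a subunit of AP-1, fell from 31.9, 40.1 and 35.8 CPM to 17.1, 3.13 and 3.70 CPM (-2.38 ± 0.30, adjusted p = 2.51e-07), and by -3.06 without replicate 1. Areg, the EGF receptor ligand amphiregulin, was at least 6.64-fold lower, and Ier3 at least 3.29-fold lower, losing its call without AD_3h replicate 1. Klf10 went from 2.21, 2.05 and 3.87 CPM to 19.9, 8.47 and 3.89 CPM (1.45) and was not called without AD_12h replicate 1 (0.91). Gem, a small GTPase, was called in its place (1.28).

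Glucocorticoid-induced genes were followed because such hormones are common in adipogenic media. Of 8 tested, 2 rose and 1 fell (3 and 2 without AD_12h replicate 1), with a median of -0.48, or -0.52 with genes at the floor set to their bounds. Of the 30 chosen genes 10 were listed, and Fkbp5 and Per1 were not. Tsc22d3, the glucocorticoid-induced leucine zipper, rose from 181, 156 and 163 CPM to 369, 348 and 402 CPM (1.16 ± 0.15, adjusted p = 6.72e-07), against 31.1, 26.9 and 25.3 CPM in undifferentiated cells. Mt2A, a metallothionein, rose from 2010, 1730 and 2090 CPM to 4020, 3870 and 4740 CPM (1.11 ± 0.13, adjusted p = 7.08e-08). Tgm2, a transglutaminase, was at least 3.99-fold lower.

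Some genes of lipid synthesis rose. Cells make cholesterol and fatty acids under the control of SREBP factors, in many cell types beside the adipocyte. Of 14 tested genes of cholesterol synthesis and uptake 4 rose and none fell, with and without AD_12h replicate 1, and the median log2 change was 0.59. Fdft1, which makes squalene, rose from 192, 175 and 186 CPM to 675, 565 and 556 CPM (1.69 ± 0.10, adjusted p = 1.88e-14). Insig1, a sterol-regulated brake on SREBP processing, rose from 330, 330 and 354 CPM to 1510, 833 and 858 CPM (1.60 ± 0.16, adjusted p = 2e-09). Sqle and Msmo1, enzymes of sterol synthesis, each rose by 1.29, and all samples of these 4 genes at 12 h lay above those at 3 h, with replicate 1 the highest. Srebf2, which encodes the SREBP of sterol synthesis, was not called at 127, 137 and 138 CPM and then 237, 129 and 135 CPM.

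Among 7 tested genes of fatty acid synthesis 2 rose and none fell, with a median of 0.94. The count rose to 3 without AD_12h replicate 1, to 4 without replicate 2 and to 5 without AD_3h replicate 1. Scd2, a desaturase that makes monounsaturated fatty acids, rose from 4620, 4550 and 4940 CPM to 17800, 11000 and 11200 CPM (1.47 ± 0.12, adjusted p = 8.41e-11). Pnpla3 rose from 0.221, 0.472 and 2.38 CPM to 4.10, 4.05 and 2.96 CPM (1.36 ± 0.32, adjusted p = 0.00136). Fasn, fatty acid synthase, had a change of 0.72 ± 0.15 (adjusted p = 0.000539) that missed the threshold of size, with 2220, 1950 and 2240 CPM at 3 h and 4240, 3220 and 3160 CPM at 12 h. Acaca was called without AD_12h replicate 1 (1.08) and without AD_3h replicate 1 (1.02), Elovl6 without AD_12h replicate 2 (1.41), and neither with all samples, and Srebf1 was not called. Lipid synthesis genes also rose in osteogenesis, 3 of the 14 cholesterol genes and 2 of the 7 fatty acid genes, and no difference from osteogenesis was called in either list (1 lower cholesterol gene without AD_12h replicate 1 and 1 higher by edgeR). Scd2 changed by 2.04 and Sqle by 1.62 in osteogenesis. In chondrogenesis 1 cholesterol gene rose and none fell, and 1 fatty acid gene fell and none rose, where 1.74% of all tested genes rose and 5.94% fell. The difference from chondrogenesis was called higher for 4 cholesterol genes and 1 fatty acid gene and lower for 1 cholesterol gene, with and without AD_12h replicate 1, where 7.93% and 6.35% of all tested genes were called higher and lower.

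Genes of stored fat and regulators of adipogenesis were examined next. Of 10 tested adipocyte lipid storage genes none rose and 2 fell (3 without AD_12h replicate 1), with a median of -0.27. Of the 28 chosen storage genes 16 were listed, and Fabp4 and Adipoq were not. Apoe, a lipoprotein component counted on summed rows, changed by -1.51 ± 0.30 (adjusted p = 0.000187), and Acsl1, which activates fatty acids, by -1.31 ± 0.28 (adjusted p = 0.000403), from at most 5.82 and 3.93 CPM. Fabp5, a fatty acid binding protein, just missed the threshold at 183, 154 and 187 CPM and then 132, 69.4 and 73.1 CPM, and was called without replicate 1 (-1.28). Plin1, which coats lipid droplets, was listed at 0 to 0.332 CPM in the 6 samples. Lpl was not called, with 559, 571 and 607 CPM at 3 h and the uneven 12 h values given above. Its change was 0.185 with all samples. Without replicate 1 it was 0.87 (limma, adjusted p = 0.00241), which missed the threshold of size. Of 13 tested adipogenic regulators 2 rose and 1 fell (2 and 2 without replicate 1, while 1 rose without replicate 2), with a median of -0.30. Only 16 of the 34 chosen regulators were listed. Cebpb and Cebpd, of the early C/EBP wave, were not among them. Klf3, a repressor of early adipogenesis, rose from 43.6, 47.5 and 48.3 CPM to 123, 124 and 113 CPM (1.35 ± 0.17, adjusted p = 3.69e-07), and Zfp467 was at least 2.68-fold higher, losing its call without AD_12h replicate 2. Sox9, a chondrogenic factor that restrains adipogenesis, fell from 19.0, 17.6 and 14.4 CPM to 5.85, 5.89 and 5.0 CPM (-1.45 ± 0.14, adjusted p = 2.69e-09). Pparg stood at 0.774, 0.472 and 0.297 CPM and then 0.146, 0 and 0.370 CPM, and Cebpa at 1.88, 0.472 and 1.78 CPM and then 0, 0.368 and 0.185 CPM. Neither was called. The 3 h and 12 h samples of Cebpa did not overlap, it was at least 2.67-fold lower at 12 h, and the edgeR fit called it (-2.85, adjusted p = 0.0497). Klf4, an early activator, held 768, 757 and 771 CPM and then 670, 360 and 363 CPM and was called without AD_12h replicate 1 (-1.08) but not with it, and Klf5 was not called.

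**Figure D4:**
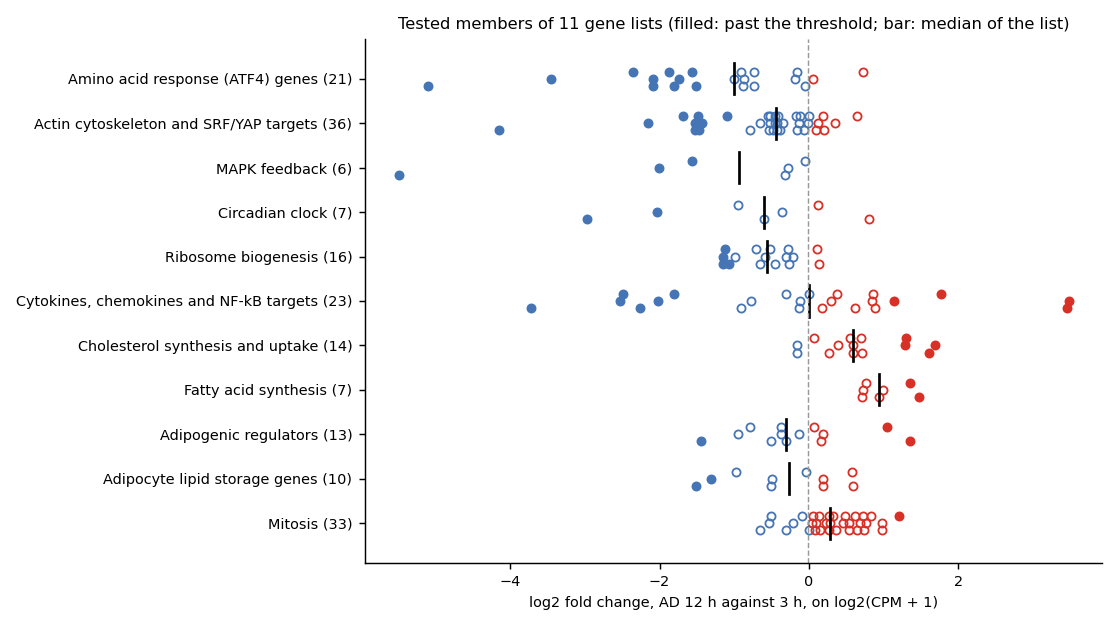
Log2 change from AD_3h to AD_12h on the log2(CPM + 1) scale (x axis) of the tested members of 11 gene lists (number tested in brackets); each circle is a gene, filled where the call was made, and the vertical bar is the median of the list. Amino acid response genes had a median of -1.0 and fatty acid synthesis genes of 0.94, against -0.02 over all tested genes.

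Secreted inflammatory genes were split in direction. Of 23 tested cytokine, chemokine and NF-kB target genes, 4 rose and 6 fell, with and without AD_12h replicate 1, and the median was -0.00 (-0.07 without it). Beside Cxcl6 and C1s, the monocyte attractants Ccl7 and Ccl2, named after their values were seen, rose by 1.76 and 1.13. Il1b and Il1a, also named so, held no more than 3 reads in any library at 12 h and were at least 10.5-fold and 7.65-fold lower, and Il6 changed by -1.81, being at 20.8, 29 and 22.0 CPM at 3 h and 6.87, 4.42 and 7.22 CPM at 12 h. Cxcl2, a neutrophil attractant, fell from 13.3, 14.2 and 14.1 CPM to 1.61, 1.47 and 1.67 CPM (-2.52 ± 0.22, adjusted p = 2.98e-10), while Cxcl1 missed the threshold of size at 8860, 9250 and 9360 CPM and then 4440, 5660 and 6000 CPM. Among 12 interferon response genes 1 rose, Ifi44 (at least 4.91-fold higher), and none fell, with and without AD_12h replicate 1, and the median was 0.20.

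The extracellular matrix list held changes in both directions. Of 38 tested genes 4 rose and 6 fell, with a median of -0.04, and the counts were 7 and 7 and the median -0.09 without AD_12h replicate 1, while 2 rose without replicate 2. Has2, which makes hyaluronan, fell from 390, 459 and 401 CPM to 26.0, 72.7 and 76.6 CPM (-2.96 ± 0.27, adjusted p = 4.41e-10), against 18.8, 18.1 and 13.0 CPM in undifferentiated cells. Lum, the proteoglycan lumican, rose from 7.30, 7.24 and 5.95 CPM to 20.0, 45.1 and 44.4 CPM (2.18 ± 0.75, adjusted p = 0.0266), and its call was lost without any one of the 3 h samples and without replicate 2 or 3 at 12 h. The fibrillar collagen gene Col5a2 rose by 1.71 ± 0.35 (adjusted p = 0.000347). Spon1 is given above. Among 16 matrix proteases and inhibitors 1 rose and 2 fell (2 and 4 without AD_12h replicate 1), with a median of 0.14 (0.09 without it). Mmp24, a membrane-type metalloproteinase, held 3.43, 3.46 and 4.76 CPM at 3 h and was listed at 0 in every 12 h sample, at least 7.53-fold lower, and Mmp15 was at least 5.6-fold higher. Plau is given above. Of 17 integrin, cadherin and connexin genes and their like 1 rose and 1 fell (2 and 2 without AD_12h replicate 1), with a median of -0.11 (-0.26 without it). Cldn15, a claudin, rose by 2.30 ± 0.48 (adjusted p = 0.000333), and Cd44, the hyaluronan receptor, fell from 1170, 1260 and 1240 CPM to 405, 368 and 381 CPM on summed rows (-1.67 ± 0.13, adjusted p = 9.06e-12). Itgb1, the shared integrin chain, was not called, but was without AD_12h replicate 1 (-1.08) and under quantile normalization (-1.23).

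Pathways that steer mesenchymal fate were read gene by gene. Of 12 tested TGF-beta and BMP genes 1 rose and 3 fell, with and without AD_12h replicate 1, with a median of -0.52. Bambi, a decoy receptor, fell from 32.4, 32.3 and 40.3 CPM to 2.63, 7.92 and 8.14 CPM (-2.42 ± 0.31, adjusted p = 3.21e-07), and Id3, an inhibitor of basic helix-loop-helix factors, rose from 88.4, 65.6 and 80.3 CPM to 300, 165 and 179 CPM (1.41 ± 0.20, adjusted p = 1.46e-06). Bmp3 was at least 3.34-fold lower, and Tgfb1 changed by -1.04 and lost its call without AD_12h replicate 2 or 3. Of 19 Wnt genes 1 rose and 1 fell, with and without AD_12h replicate 1, with a median of -0.07 (-0.13 without it), against 12.9% called in either direction over all genes. They were Frzb, a secreted Wnt antagonist (1.70 ± 0.40, adjusted p = 0.00139), and Nkd1, an intracellular one (-1.24 ± 0.19, adjusted p = 8.7e-06). Of 10 insulin and IGF genes 1 rose, Igfbp5, and 2 fell (2 and 2 without AD_12h replicate 1), with a median of -0.05 (-0.31 without it). Irs2, an insulin receptor substrate, fell from 155, 164 and 174 CPM to 51.2, 67.6 and 63.3 CPM (-1.43 ± 0.14, adjusted p = 2.69e-09), and Socs2, an inhibitor of growth hormone signalling, from 7.07, 6.92 and 9.52 CPM to 0.439, 1.47 and 1.85 CPM (-2.02 ± 0.34, adjusted p = 3.17e-05).

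Of 19 tested genes of glycolysis and the hypoxia response 1 rose and 4 fell, with and without AD_12h replicate 1, and the median was -0.51. Only 1 fell without AD_12h replicate 2. Egln3, a prolyl hydroxylase that marks HIF for degradation, fell from 46.2, 39.5 and 44.5 CPM to 3.22, 6.63 and 6.48 CPM (-2.83 ± 0.23, adjusted p = 3.4e-11), against 157, 150 and 168 CPM in undifferentiated cells. Ndrg1, a stress-responsive gene on summed rows, rose by 1.48 ± 0.28 (adjusted p = 9.97e-05). The glycolytic genes Aldoa, Ldha and Eno1, the last named after its values were seen, changed by -1.15, -1.08 and -1.05, and each lost its call without AD_12h replicate 2. Aldoa also lost it without AD_3h replicate 2 (-0.93), and Eno1 with a pseudocount of 0.1 and with the same sum over listed genes (-0.98). Eno1 was listed at only 6.74, 6.45 and 5.65 CPM at 3 h and 4.10, 1.47 and 2.41 CPM at 12 h, far fewer reads than Ldha. Ldha, lactate dehydrogenase A, stood at 5010, 5280 and 5670 CPM and then at 3340, 2190 and 2170 CPM, and it also lost its call without replicate 3, under quantile normalization and with the same sum over listed genes. Epas1, which encodes HIF-2α, and Hif1a were not called.

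Few genes of cell division were called in adipogenesis. Of 18 tested DNA replication and G1/S genes none rose and 1 fell, with a median of 0.25, whereas 1 rose and 1 fell without AD_12h replicate 1. Cdt1, which licenses replication origins, fell from 99.8, 102 and 101 CPM to 44.8, 47.0 and 47.9 CPM (-1.10 ± 0.18, adjusted p = 2.05e-05). Of 33 mitotic genes 1 rose and none fell, with and without AD_12h replicate 1, while the median was 0.28 with it, or 0.32 with bounds, and 0.10 without it. Leaving out another of the 6 samples gave 0 to 5 mitotic genes that rose. The chromatin protein gene Hmgb2 rose by 1.20 ± 0.30 (adjusted p = 0.00268) and lost its call without AD_3h replicate 1. Top2a, the topoisomerase of dividing cells, missed the threshold at 12.7, 10.7 and 14.6 CPM and then 26.8, 20.3 and 17.9 CPM, and Ccna2 was not called. Cdc20, an activator of the anaphase-promoting complex, was not called at 124, 111 and 123 CPM and then 449, 151 and 141 CPM. Its change was 0.83 with all samples and 0.29 without AD_12h replicate 1 (adjusted p = 0.253), and the edgeR fit to all samples called it (1.04, adjusted p = 0.000719). Of 8 cell cycle inhibitors and p53 targets 1 rose and 2 fell, with and without AD_12h replicate 1, with a median of 0.36. Rbl2, a pocket protein of quiescent cells, rose from 16.0, 18.1 and 18.1 CPM to 63.9, 70.0 and 68.3 CPM (1.89 ± 0.16, adjusted p = 1.7e-10), and Gadd45a fell by 1.21 on the log2 scale beside Sesn2.

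A list of transcription factors singled out by the study was chosen on these samples and is no independent evidence of direction. Of 131 tested, 22 rose and 15 fell, with a median of 0.08, against 21 and 17 without AD_12h replicate 1. Hbp1, a repressor of cell cycle genes, rose from 101, 120 and 109 CPM to 720, 672 and 663 CPM (2.63 ± 0.09, adjusted p = 9.79e-20), against 808, 876 and 868 CPM in undifferentiated cells. Meox2, a mesodermal homeobox factor, rose from 71.2, 92.8 and 76.7 CPM to 478, 281 and 280 CPM (2.06 ± 0.19, adjusted p = 5.5e-10). Mxd4, an antagonist of MYC, rose by 1.95 ± 0.21 (adjusted p = 1.33e-08) and Zfp39 by 2.20 ± 0.28 (adjusted p = 3.98e-07). Foxf1, a mesenchymal forkhead factor, fell from 13.3, 6.29 and 10.1 CPM to 0.585, 0 and 0.185 CPM (-3.09 ± 0.30, adjusted p = 2.06e-09), and Zfp541 changed by -2.46 ± 0.25 (adjusted p = 4.41e-09). Foxc2, another forkhead factor, changed by -1.96 ± 0.22 (adjusted p = 3.21e-08).

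Apart from members described with their pathways, the other called factors rose by 1.03 to 1.62 or changed by -1.11 to -1.63. Ehf, Hoxc6, Zeb1, Mef2a, Hic1, Snai2, Zfp521, Tmf1, Rfx2 and Hoxd10 were among those that rose, while L3mbtl1, Pou2f3, Tsc22d1, Arid3b, Zfp668 and Ets2 fell. Hoxc6 was at least 4.6-fold higher, and L3mbtl1 and Pou2f3 at least 4.54-fold and 4.06-fold lower. Snai2, a factor of mesenchymal transition, was the called member whose groups overlapped, at 17.1, 25.2 and 17.7 CPM and then 21.6, 65.9 and 82.5 CPM. Calls were lost without AD_12h replicate 1 for Ets2 (-0.97) and Tmf1 (0.95), without replicate 2 for Rfx2 and Zeb1, and without replicate 3 for Snai2, Zfp668 and Hoxd10. Leaving out AD_3h replicate 1 ended the calls of Rfx2, Tmf1 and Hoxd10, replicate 2 that of Tmf1 and replicate 3 that of Hoxd10. Mef2a, Rfx2, Tmf1 and L3mbtl1 were summed from several rows, and Mef2a lost its call when these were tested apart.

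Markers of the cells the cultures could hold were read as summed CPM. The 10 mesenchymal stromal markers in the files summed to between 16500 and 17800 CPM at 3 h and to between 9410 and 12500 CPM at 12 h. Itgb1, Thy1 and Cd44 made up most of this sum. Vim, Pdgfra, Pdgfrb and Eng were listed at no more than 1.77 CPM in the 6 samples. A sum is therefore not a level of a cell type. Of the 5 stromal markers tested, 1 fell, Cd44, with a median of -0.48, or -0.31 with bounds, and 2 fell without AD_12h replicate 1. Thy1, the stromal surface protein CD90, was not called at 6560, 6060 and 6630 CPM and then 6060, 5090 and 4670 CPM. The 8 haematopoietic and macrophage markers summed to 2.08 to 3.54 CPM at 3 h and 0.585 to 6.11 CPM at 12 h, with none of 3 tested called, with or without AD_12h replicate 1. The 9 endothelial markers summed to 8.62 to 9.6 CPM and then to 2.41 to 7.75 CPM, and Tek, of 3 tested, fell by 1.45 on the log2 scale (1 also fell without AD_12h replicate 1). The 12 osteoblast markers summed to 393 to 429 CPM and then to 140 to 276 CPM, and of 5 tested 1 fell, Dlx3, from 232, 230 and 234 CPM to 190, 43.3 and 49.0 CPM (-1.63, and -2.31 without AD_12h replicate 1, where again 1 of the list fell). Dlx3 and Tnfrsf11b made up most of that sum, while Sp7, Bglap, Alpl and Dmp1 were listed at no more than 1.66 CPM. The 16 chondrocyte markers summed to 17.8 to 23.4 CPM and then to 6.73 to 10.5 CPM, with Sox9 the gene called of 7 tested (1 fell without AD_12h replicate 1 as well). Sox9 made up most of that sum. Adgre1, Mrc1, Erg, Sox17, Sox18, Spp1, Sox6, Hapln1 and Epyc were listed at 0 in the 6 samples. The part of other cell types in the results was not tested.

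Whether the change from 3 h to 12 h differed between lineages was tested as an interaction, in arms that share no samples. It differed from osteogenesis in 484 of 4363 genes (11.1%), with 164 higher (3.76%) and 320 lower (7.33%) in adipogenesis, and from chondrogenesis in 623 (14.3%), with 346 higher (7.93%) and 277 lower (6.35%). Of these, 267 and 304 were also called in adipogenesis itself. Without AD_12h replicate 1 the numbers were 623 against osteogenesis (227 higher, 396 lower) and 686 against chondrogenesis (377 higher, 309 lower). OS_3h replicate 3 also lay apart, over 1 log2 unit from the mean of the other 2 samples of its group in 366 genes. Without it 540 genes were called against osteogenesis, and the osteogenesis list counts in this report include it. The share of higher calls against osteogenesis was 33.9% with all samples. It became 47.4% when samples were scaled to the same sum over listed genes and 55.4% by edgeR, where the median difference of all genes moved by 0.14 and 0.17.

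Division genes changed differently in adipogenesis and chondrogenesis, and against osteogenesis the difference lay in replication genes. From 3 h to 12 h, 341 genes (7.82%) were called in osteogenesis and 335 (7.68%) in chondrogenesis. Of the 18 replication genes, where 1 fell in adipogenesis, 11 rose and none fell in osteogenesis (4.7% and 3.12% of all tested genes rose and fell there), and 12 fell and none rose in chondrogenesis (5.94% and 1.74%). The interaction was negative for 7 of the 18 against osteogenesis (8 without AD_12h replicate 1, 3 by edgeR and 4 with the same sum over listed genes) and positive for 13 against chondrogenesis (14 without AD_12h replicate 1 and 13 by edgeR). Mcm6, a subunit of the replicative helicase, named after its values were seen, stood at 402, 413 and 457 CPM at 3 h and at 483, 395 and 394 CPM at 12 h of adipogenesis and was not called there. Of the 33 mitotic genes 9 rose in osteogenesis and 24 fell in chondrogenesis, and the interaction was positive against chondrogenesis for 22, with and without AD_12h replicate 1, and negative against osteogenesis for 2 (4 without AD_12h replicate 1 and 1 by edgeR). Over all tested genes 7.93% were higher against chondrogenesis and 7.33% lower against osteogenesis. The mitotic count against osteogenesis lay near that share and is no result about the list. The change of Top2a was 0.72 in adipogenesis and -2.19 in chondrogenesis, a difference of 2.91 ± 0.34 (adjusted p = 1.15e-07). Some amino acid response genes also fell elsewhere, with 7 of 21 genes lower and none higher in osteogenesis (median -0.76) and 3 lower and 1 higher in chondrogenesis (median -0.38). The interaction was negative for 5 genes against osteogenesis (9 without AD_12h replicate 1, 2 by edgeR) and for 12 against chondrogenesis (12 and 11), and none positive. For glycolysis and the hypoxia response it was negative for 7 of 19 against osteogenesis, with and without AD_12h replicate 1 and by edgeR.

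Single genes showed the contrast most strongly. Igfbp5 rose in adipogenesis and, by 3.14 (adjusted p = 0.00193), in chondrogenesis, and averaged 2.14 ± 1.27 CPM (SD, n = 3) at 3 h and 2.21 ± 0.241 CPM at 12 h of osteogenesis. Egln3 went the opposite way, from 29.9 ± 0.803 to 244 ± 6.32 CPM in osteogenesis, and Mettl7b went from 1.63 ± 1.01 to 13.8 ± 1.92 CPM there. In chondrogenesis Has2 went from 48.3 ± 1.04 to 249 ± 10.4 CPM, Dusp4 from 16.0 ± 1.38 to 35.8 ± 6.01 CPM and Plau from 8.10 ± 0.755 to 30.4 ± 3.82 CPM, where all 3 fell in adipogenesis. All 3 fell in osteogenesis too, with changes of -3.59 for Has2, -2.15 for Dusp4 and -2.25 for Plau. Aox1 and Ptn differed from both lineages, with Ptn at 11.7 ± 0.865 CPM at 12 h of osteogenesis and 24.7 ± 2.65 CPM at 12 h of chondrogenesis.

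**Figure D5:**
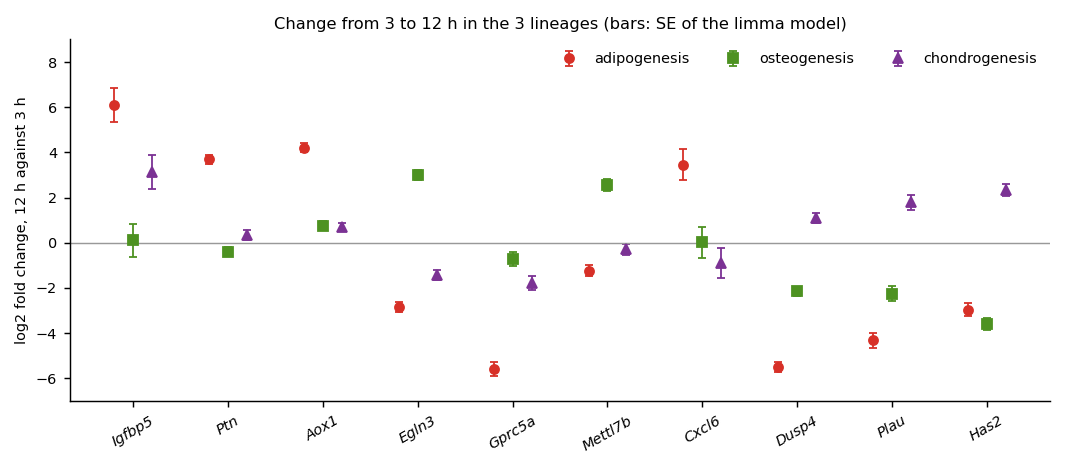
Log2 change from 3 h to 12 h (y axis, log2(CPM + 1) scale) of 10 genes in adipogenesis (red circles), osteogenesis (green squares) and chondrogenesis (purple triangles); bars are the standard error of the limma model on 3 samples per group. Egln3 stood at -2.83 in adipogenesis and 2.99 in osteogenesis, and Has2 at -2.96 in adipogenesis and 2.34 in chondrogenesis.

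Other motifs were searched in the promoter windows of the matching lists and are given as letters only. TTTGAA (CHR) was found in 18 of 27 mitotic genes and 18.3% of all windows (12.1% of tested genes), and the E2F motif TTTCGCGC or TTTGGCGC in 7 of 13 replication genes and 0.792% of windows (1.49%). TGACGTCA (CRE) was held by 1 of 4 immediate-early genes and 1.83% of windows (3.04%), and TGATGNAAT (CARE) by 1 of 18 amino acid response genes and 1.09% (0.597%). TCACNCCAC (SRE) was held by 0 of 9 cholesterol genes and 1.12% of windows (1.22%), and the glucocorticoid response element (GRE) by 0 of 6 glucocorticoid genes and 0.415% (0.298%).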

How the data were processed

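RNA of 30 rat BMSC samples was sequenced, and the comparison used AD_12h and AD_3h. Per the labels the libraries were depleted of ribosomal RNA, whereas the study's methods name an mRNA kit. The submitters' processing notes name Trimmomatic, HISAT2 and StringTie, and the genome build is not given in the sources used here. The authors deposited 1 table per sample whose value column is named FPKM but held CPM: every value was a whole multiple of the CPM of 1 read (100% within a tolerance of 0.05 reads). Reads were recovered from these steps.

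The 10803 rows were summed to 9999 gene names, of which 729 stood on more than 1 row, 8356 matched a RefSeq symbol of GRCr8 and 454 a synonym alone. The 4363 genes that reached 1 CPM in 3 or more of 30 samples were tested with limma 3.58.1 (R 4.3.3, trend, 10 groups) on log2(CPM + 1). A fold change on this scale understates the change of low genes. A call needed a size of at least 1 and a Benjamini-Hochberg adjusted p under 0.05 over all tested genes. edgeR 4.0.16 (quasi-likelihood, TMM) on the recovered reads called 720 genes, 549 of them shared. Fits were tested on simulated data with 200 changed genes among 4363: limma recovered 145, and 76 of 76 at 10 CPM or more, with 1 false call. The simulation gave every gene the same dispersion and held no sample that lay apart, as AD_12h replicate 1 did. Its numbers are therefore not the error rates of the calls above.

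The comparison, its members and the 32 gene lists were chosen with earlier results of these data known. Genes were named by rule: the 12 largest rises and falls called with and without AD_12h replicate 1, not overlapping and at 5 CPM or more on average; up to 4 called genes per list, with uncalled members for contrast; called transcription factors; and 3 genes per direction and interaction. Genes outside the rule are marked as such, and the genes Actb, Vim, Ctgf, Bop1 and Calr were likewise named after their values were seen. Lists are described by counts and medians, with no test of a list. Some single genes are not reported here. Alternatives were the pseudocount, filters, scaling, samples fitted, edgeR, a replicate block, rows tested apart and leaving out each sample. Promoters came from RefSeq tables. Tables were computed with Python 3.11.15, numpy 2.4.6, pandas 2.3.3 and scipy 1.17.1, and plots with matplotlib 3.10.9.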

Additional observations from a re-analysis of the deposited data

Results flagged for a closer look

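The change from 3 h to 12 h differed between adipogenesis and osteogenesis in 484 genes and between adipogenesis and chondrogenesis in 623 genes, by limma's test of the difference itself (adjusted p under 0.05 and a difference of at least 1 on the log2 scale). Against osteogenesis the largest positive differences among genes also called in adipogenesis were those of Igfbp5 (6.0, and 5.28 without AD_12h replicate 1), Ptn (4.09) and Aox1 (3.44), and the largest negative ones those of Egln3 (-5.82), Gprc5a (-4.89) and Mettl7b (-3.80). Against chondrogenesis they were Cxcl6 (4.35), Aox1 (3.51) and Ptn (3.36), and Dusp4 (-6.60), Plau (-6.11) and Has2 (-5.30). All 12 differences were called without AD_12h replicate 1 and by edgeR as well.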

How the results depend on the processing

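Over all genes, 190 of the counts recomputed under alternatives stayed within 1.5 times their value, and 2 did not: by edgeR 168 genes had a lower change in adipogenesis than in osteogenesis, against 320, and by edgeR without AD_12h replicate 1 (added after seeing the data) 349 genes rose, against 224. The cause was not tested. Leaving out each sample in turn gave 542 to 668 calls in adipogenesis (214 to 279 higher, 325 to 389 lower), 395 to 623 against osteogenesis (128 to 227 higher, 267 to 396 lower) and 562 to 686 against chondrogenesis (314 to 377 higher, 229 to 309 lower). Calls in adipogenesis numbered 730 with a pseudocount of 0.1, 566 without a filter, 537 with the filter on the 6 samples, 548 with median-ratio scaling, 557 with quantile normalization, 562 with the same sum over listed genes, 527 with the compared samples alone and 579 with rows of a name apart. Same-numbered samples did not deviate together (r of -0.035 to -0.011, in 3 pairs), so the numbers were not taken to pair the samples; with the replicate block 536 genes were called among the compared samples and 565 among all 30. For single named genes 3182 values kept their side of the threshold, 76 lost and 53 gained it, and none that was called changed sign. With the same sum over listed genes Cdt1, Rrp12, Ldha, Tgfb1, Eno1 and Cnn2 lost their calls, and with quantile normalization Ldha and Tgfb1. Of the list counts 1179 stayed within 1.5 times and 101 did not, most of them counts of few genes. Low reads, and the share of reads outside the listed genes, limit what can be said of genes near the floor.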
